A study of Mus musculus with 2 samples.

Results

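The motor of the sperm tail is the axoneme, a ring of microtubule doublets around a central pair that carries the dynein arms. The genes described here are those whose symbols name axonemal dynein chains (Dnah, Dnaic, Dnal, Dnali), tektins (Tekt), radial spoke proteins (Rsph) or cilia- and flagella-associated proteins (Cfap). Of 25065 gene symbols, 60 met this rule, and 39 of them could be placed on exactly 1 row of the UMI count matrix. These 39 genes were 7 dynein heavy chains, 3 intermediate and light chains, 4 tektins, 6 radial spoke genes and 19 Cfap genes. The other 21 were not analysed here, namely Cfap157, Cfap221, Cfap52, Cfap54, Cfap73, Cfap77, Cfap99, Dnah1, Dnah10, Dnah11, Dnah2os, Dnah5, Dnah6, Dnah7a, Dnah7c, Dnah9, Dnaic2, Dnal4, Rsph3b, Rsph4a and Tekt5.

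The counts came from single testis cells of wild-type (WT) and *Tex13a* knockout (KO) mice. Both groups were C57BL/6 males of 10 to 12 weeks (C57BL/6N in the methods of the study), and in the KO mice every exon of the X-linked gene *Tex13a* had been removed with CRISPR/Cas9, in all cells and not only in germ cells. There was 1 library per genotype, each made from 3 testes pooled from 3 mice, so single animals are not resolved, and whether a KO value differs by genotype or by library cannot be told apart. The study grouped the 5170 WT and 7238 KO cells into 13 clusters, ordered from spermatogonia (Sg) over spermatocytes (Sc1 and Sc2) and a mixed cluster of spermatocytes and early spermatids (Sd1) to the later spermatids (Sd2 to Sd10). The symbol *Tex13a* itself could stand for more than 1 row, so the deletion was not checked on its own counts.

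The libraries held 45568532 UMIs (WT) and 67734689 UMIs (KO), with 749010 to 12722633 UMIs in a cluster of a library and no cell barcode in common. Levels are given as CPM, UMIs of a gene per 1000000 UMIs of the cluster, with exact 95% Poisson intervals that cover counting error only. Of the stage markers, Uchl1 was highest in Sg, Sycp3 in Sc1, Piwil1 in Sc2, Acrv1 in Sd4, Tnp2 in Sd7 and Prm2 in Sd10 of the WT library. Others stood outside the stage they were listed for. Stra8, listed with spermatogonia, read 850 CPM in WT Sg and 4287 CPM in Sc1. Ccna1, listed with spermatocytes, was highest in WT Sd1 at 498 CPM, with 363 CPM in Sd2. The late spermatid gene Prm1 was read in WT Sg at 13.5% of its highest level and Tnp1 at 10.6%, so levels of this size relative to a peak were also read in cells that should lack the transcript. The clusters were built from these same cells, and courses over them are descriptions without a test.

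In an axoneme, outer and inner dynein arms pull neighbouring doublets past each other, radial spokes link the doublets to the central pair, and tektins and other inner proteins line the wall of the doublets. Spermatids build this structure early, while transcription is still active, and later condense their chromatin around protamines. The axoneme genes are therefore known as transcripts of late meiotic and early haploid cells.

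Most of the 39 genes were highest between Sd1, which also holds spermatocytes, and Sd4. In WT, 29 of 39 had their highest cluster there, against 38.7% of all genes placed on 1 row with at least 100 UMIs. For Sg to Sc2 the number was 8 of 39 (37.2% of all genes), for Sd5 to Sd8 1 of 39 (12.2%) and for Sd9 to Sd10 1 of 39 (11.8%). In KO the numbers were 28 in Sd1 to Sd4 (38.2% of all genes), 9 in Sg to Sc2 (37.4%), 1 in Sd5 to Sd8 (12.6%) and 1 in Sd9 to Sd10 (11.8%). With Sd1 left out, 18 of 39 genes were highest in Sd2 to Sd4 in WT (22.6% of all genes) and 18 of 39 in KO (22.9%). The interval of the highest cluster lay above that of the second for 21 of 39 genes in WT and 26 in KO. For the others the single highest cluster is not resolved. The start of a gene was set as the first cluster with at least 50% of its highest level. In WT 24 of 39 genes had started by Sc2, close to the share among all genes (61.0%), and in KO 25 of 39 (62.4%). By Sd1, 31 of 39 had started in either library (67.7% of all genes in WT, 67.5% in KO). When UMIs per 1000 cells replaced CPM, 25 of 39 WT genes kept their highest cluster and 13 of 39 were highest in Sg to Sc2. In the earliest clusters, Sg and Sc1, 36 of 39 WT genes (44.7% of all genes) and 37 of 39 KO genes (44.6%) were under 25% of their peak.

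Summed over the 39 genes, the WT level was 1923 CPM in Sg, 2191 CPM in Sc1 and 10734 CPM in Sc2. It was highest in Sd1 with 14363 CPM (14261 to 14465) and Sd2 with 14401 CPM (14260 to 14544), whose intervals overlapped. The sum stood at 12554 CPM in Sd3, 8131 CPM in Sd4 and 2315 CPM in Sd5. From Sd6 to Sd10 it lay between 1225 and 1485 CPM. The classes differed more in their peaks than in their starts, as the heat map of the 39 genes and the class medians show. By median, heavy chains, radial spoke and Cfap genes started in Sc2 in WT, and tektins and intermediate and light chains in Sd1. The median WT peak ran from Sc2 for heavy chains to Sd3 for tektins and intermediate and light chains.

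**Figure D1:**
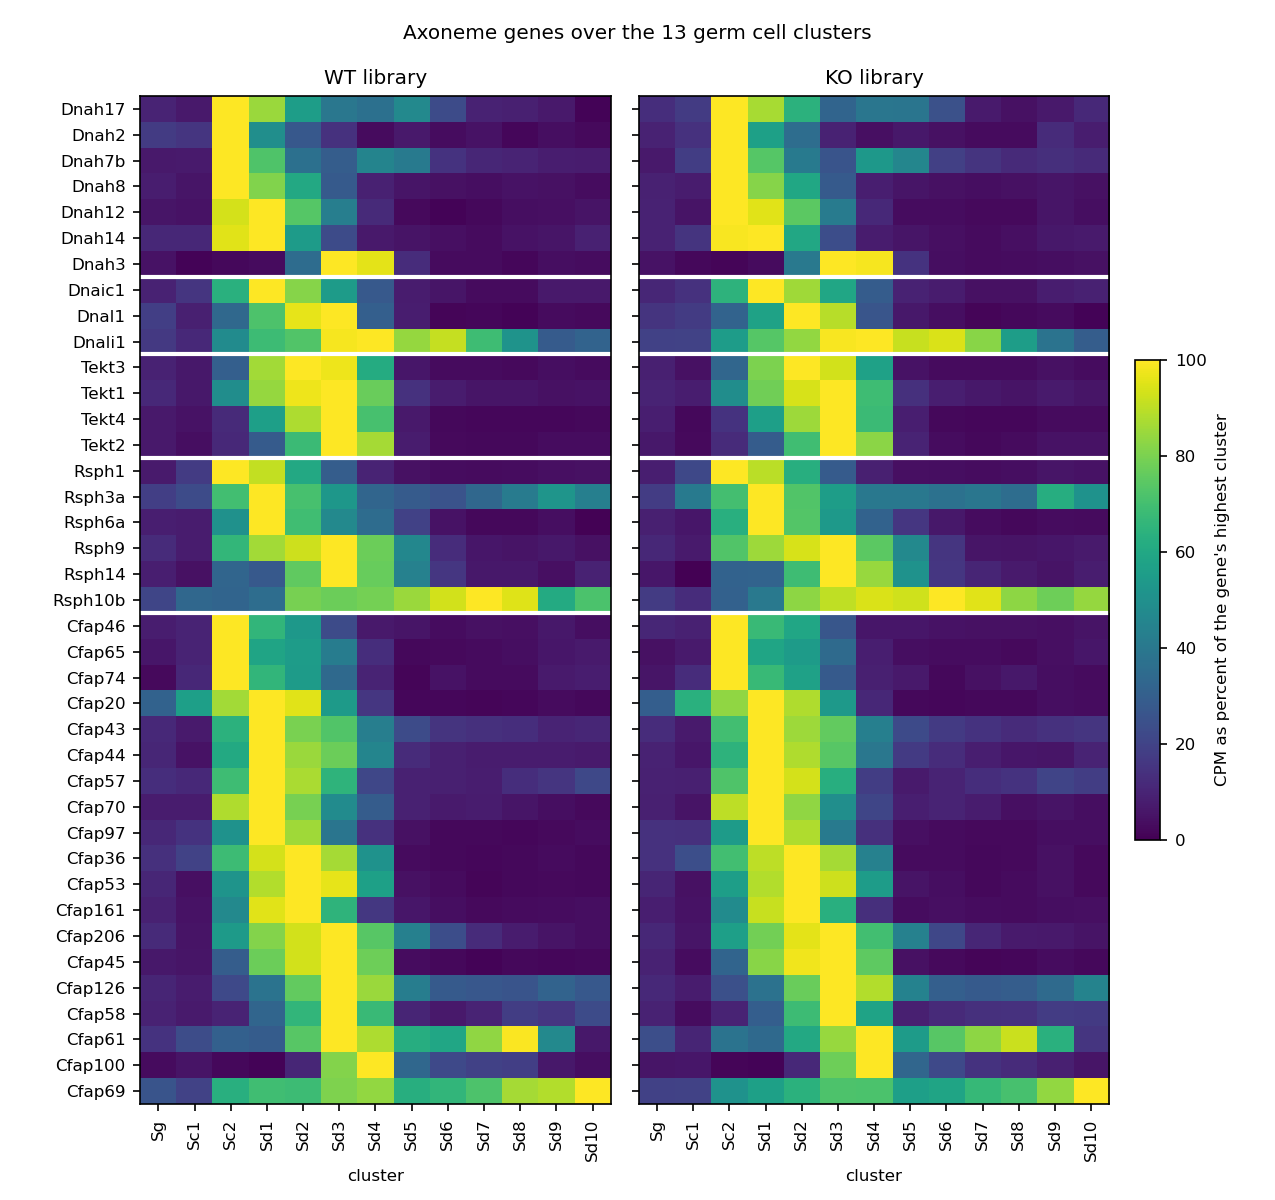
Level of each of the 39 axoneme genes (rows, grouped by class and ordered by WT peak) in the 13 clusters (columns) of the WT and KO libraries, as percent of the gene's own highest CPM in that library. Most heavy chains are brightest in Sc2, 3 of 4 tektins in Sd3, and a few genes such as Rsph10b, Dnali1 and Cfap69 stay bright into late spermatids.

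The dynein heavy chains, the ATPase motors of the arms, had the earliest median peak. Their median course was 6.73% of the peak in WT Sc1 and 100% in Sc2, then 81.1% in Sd1, 54.9% in Sd2, 29.6% in Sd3 and 6.89% in Sd5. Dnah8, an outer arm heavy chain that lies on chromosome 17 (GRCm38, 30624354 to 30877365, plus strand, 93 exons in its longest coding transcript), showed this course at the highest counts. It was read at 74.9 CPM in Sg, 53.9 in Sc1, 921 in Sc2 (899 to 944), 747 in Sd1, 557 in Sd2, 263 in Sd3 and 85.4 in Sd4 of WT. From Sd5 to Sd10 it lay between 31.1 and 53.7 CPM, all under 10% of its peak. In KO the same clusters read 1114 CPM in Sc2, 913 in Sd1, 666 in Sd2 and 317 in Sd3.

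Dnah17, another outer arm chain of sperm, was highest in WT Sc2 at 72.7 CPM (66.6 to 79.3), and it was still at 34.3 CPM in Sd5 and 16.7 CPM in Sd6. Dnah2, an inner arm chain, was the scarcest of the class, at 31.8 CPM in Sc2 and 15.7 CPM in Sd1 of WT. Dnah12, an inner arm chain, read 250 CPM in Sc2 and 267 CPM in Sd1, and Dnah14 read 205 and 215 CPM, with overlapping intervals between these clusters for each gene. In KO Dnah12 had its highest cluster in Sc2 instead, at 329 CPM. Dnah7b read 106 CPM in Sc2, 31.3 in Sd3, 47.7 in Sd4 and 43.8 in Sd5, a course that went up again in Sd4 after a low in Sd3. The KO library had the same shape for Dnah7b, with 109, 28.2, 58.1 and 49.9 CPM. Dnah7b has the close paralogs Dnah7a and Dnah7c, and reads could be split among them.

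Dnah3, also an inner arm chain, was the exception in its class. It was at 3.66 CPM in Sc2, where the other 6 heavy chains had all reached at least 50% of their peak, and at 5.11 CPM in Sd1. It started in Sd3 with 179 CPM (167 to 191), stayed at 172 CPM in Sd4 and was at 22.6 CPM in Sd5. In KO it read 2.52 CPM in Sc2, 193 in Sd3 and 190 in Sd4. In Sd2 it was already at 62.8 CPM in WT and 77.6 CPM in KO, 35.2 and 40.3% of its peak. By the start at 50% of the peak, Dnah3 started 3 clusters later than Dnah8 in both libraries.

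**Figure D2:**
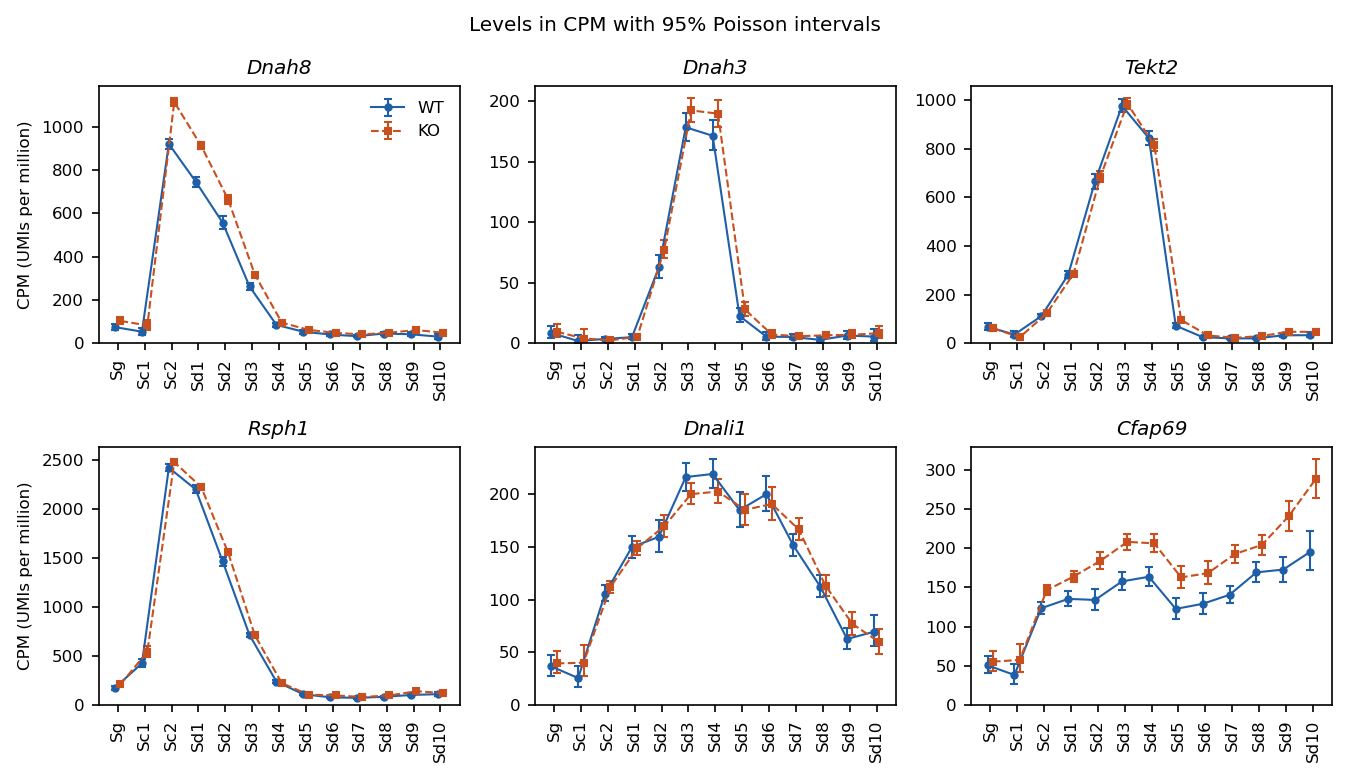
Level in CPM (vertical axes, each starting at 0) of 6 axoneme genes over the 13 clusters in WT (circles) and KO (squares), with exact 95% Poisson intervals. Dnah8 and Rsph1 peak in Sc2, Dnah3 and Tekt2 in Sd3, Dnali1 is broad from Sd1 to Sd8, and Cfap69 is highest in Sd10 and lies higher in KO in every cluster.

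The intermediate and light chains, accessory subunits of the arms, had later peaks than most heavy chains. Dnaic1, an intermediate chain of the outer arm, started in Sc2 at 102 CPM and was highest in Sd1 at 161 CPM (150 to 172) in WT. Dnal1, an outer arm light chain, started in Sd1 at 87.8 CPM and was highest in Sd3 at 122 CPM, with 117 CPM in Sd2 and overlapping intervals. In KO Dnal1 had its highest cluster in Sd2 (153 CPM). Dnali1, a light intermediate chain of the inner arm, kept its level far longer than any heavy chain. It was at 150 CPM in Sd1, 216 in Sd3, 219 in Sd4, 185 in Sd5, 200 in Sd6, 151 in Sd7 and 112 in Sd8 of WT. Its KO course was alike, with 203 CPM in Sd4 and 113 CPM in Sd8, except that it had passed 50% of the peak by Sc2.

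The tektins, coiled-coil proteins that form filaments inside the doublets, followed as a tight group. Their median course in WT was 21.0% of the peak in Sc2, 70.3% in Sd1, 92.5% in Sd2, 100% in Sd3 and 74.1% in Sd4, and then 7.06% in Sd5. Tekt2 (chromosome 4, 126322121 to 126325688, minus strand, 11 exons) was at 112 CPM in Sc2, 282 in Sd1, 667 in Sd2, 977 in Sd3 (950 to 1005), 844 in Sd4 and 72.6 in Sd5. Its KO values were 123, 286, 685, 986, 816 and 96.4 CPM. Tekt1 started earlier than Tekt2, at 597 CPM in Sd1 with 349 CPM already in Sc2, and was highest in Sd3 at 710 CPM. Tekt3 was highest in Sd2 at 712 CPM with 693 CPM in Sd3, and Tekt4 in Sd3 at 552 CPM with 483 CPM in Sd2. All 4 tektins were within 1 cluster of each other at their peak, and at 1.94 to 4.30% of it in Sd9.

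**Figure D3:**
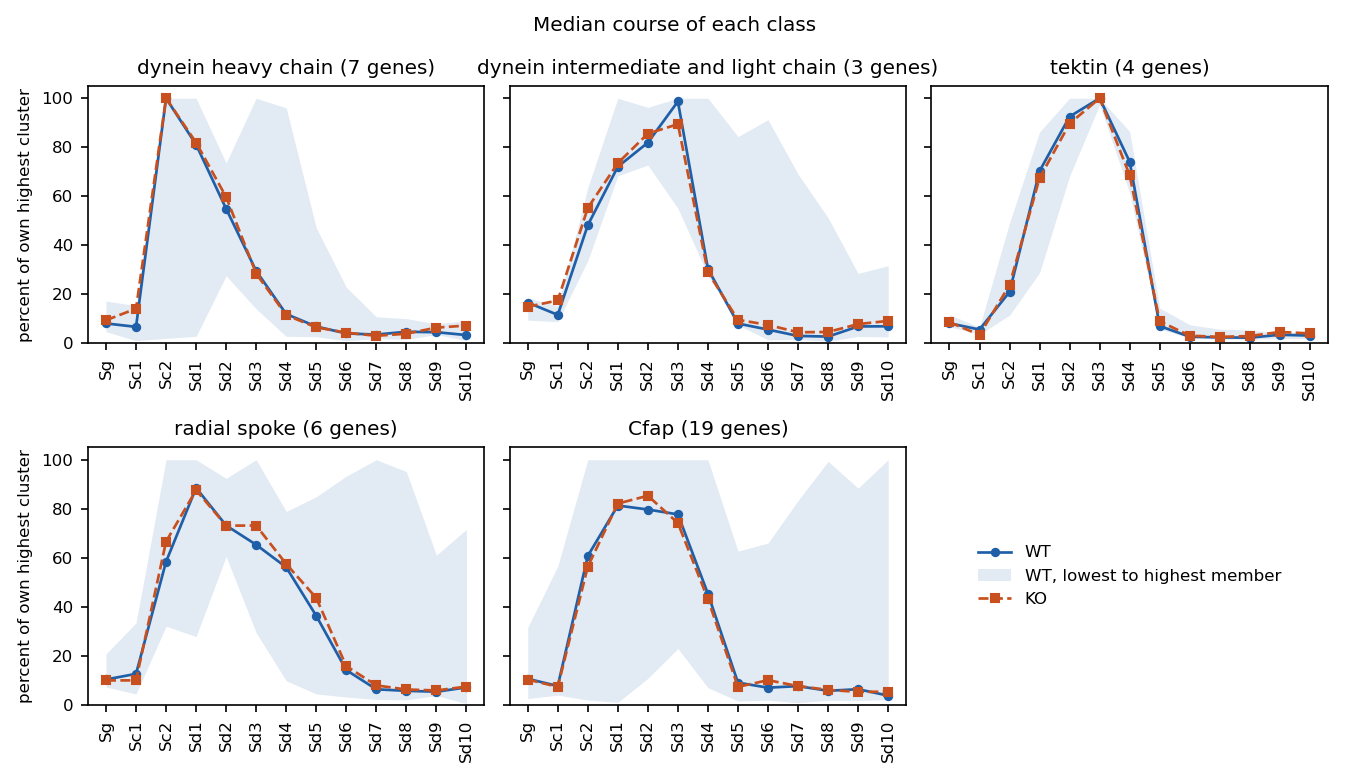
Median over the genes of a class of the level as percent of each gene's highest cluster, over the 13 clusters, for WT (circles, solid) and KO (squares, dashed). The shaded band runs from the lowest to the highest gene of the class in WT and is narrow for tektins and wide for radial spoke and Cfap genes.

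The radial spoke genes had no common course. Rsph1, a spoke head gene, had by far the most UMIs of the class and followed the heavy chains, with 425 CPM in Sc1, 2422 in Sc2 (2386 to 2458), 2201 in Sd1, 1466 in Sd2 and 238 in Sd4 of WT. The KO levels of Rsph1 were 542, 2479, 2226, 1558 and 222 CPM in these clusters. Rsph6a, a spoke head gene known from sperm, was highest in Sd1 at 152 CPM in WT and 135 CPM in KO. Rsph3a, a spoke stalk gene, was highest in Sd1 at 55.6 CPM, was at 14.2 CPM in Sd6, and was read at 29.0 CPM in Sd9. Rsph9, a spoke head gene, started in Sc2 at 227 CPM and was highest in Sd3 at 342 CPM with 316 CPM in Sd2. Rsph14 was highest in Sd3 at 65.9 CPM, 2 clusters after Rsph6a. Rsph10b, a further head gene, was at 15.1 CPM in Sc2 and 37.3 CPM in Sd2, then between 28.6 and 46.9 CPM in every cluster from Sd3 to Sd10. Its highest WT cluster, Sd7, and the next, Sd8 at 44.6 CPM, did not differ beyond their intervals. Per 1000 cells, Rsph10b was also highest earlier, with 427 UMIs in Sd4 and 344 UMIs in Sd7.

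The Cfap genes are a mixed class, and are given by the place of their proteins in the axoneme. Of the genes for central apparatus proteins, Cfap46 (108 CPM), Cfap65 (87.8 CPM) and Cfap74 (70.5 CPM) all had their peak in WT Sc2 and were under 10% of it from Sd5 on. The 3 genes peaked in Sc2 in KO too, at 117, 92.8 and 73.2 CPM. Cfap69, also a central apparatus gene, was different. It was read at 124 CPM in Sc2, 158 in Sd3, 123 in Sd5, 141 in Sd7, 173 in Sd9 and 196 in Sd10 (172 to 222), and was the only 1 of the 39 genes with its highest cluster in Sd10. This order holds for its part of all UMIs, since UMIs of Cfap69 per 1000 cells were highest in Sd4 (1892) and lower in Sd10 (1332).

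The genes for proteins of the inside of the doublet wall peaked with the tektins or just before. Cfap20, which sits at the junction of the tubules of a doublet, was the earliest of the 39 genes to start, at 257 CPM in WT Sc1, and was highest in Sd1 at 454 CPM. Cfap161 and Cfap53 were highest in Sd2, at 234 and 470 CPM, and Cfap45 and Cfap126 in Sd3, at 554 and 891 CPM. In WT the intervals of the highest and the second cluster overlapped for Cfap20, Cfap161, Cfap53 and Cfap45, but not for Cfap126. Cfap126 was still at 379 CPM in Sd5 and between 231 and 282 CPM from Sd6 to Sd10 of WT. In KO the 5 genes had their highest levels in the same clusters.

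Cfap43 and Cfap44, which tether an inner arm dynein, and Cfap57, an inner arm assembly gene, were all highest in Sd1, at 410, 203 and 205 CPM in WT. Cfap100, known from inner arm regulation, shared the start in Sd3 with Dnah3 and the WT peak in Sd4 with Dnali1, with 1.32 CPM in Sd1, 13.9 in Sd2, 104 in Sd3 and 128 in Sd4. The KO values of Cfap100 were 1.15, 15.4, 106 and 136 CPM. Cfap206 and Cfap61, genes of the spoke base, were both highest in WT Sd3, Cfap206 at 805 CPM and Cfap61 at 25.2 CPM. Cfap61 had a second high in Sd8 whose interval overlapped that of Sd3. Of the other Cfap genes, Cfap36 was the most abundant by UMIs and was highest in Sd2 at 2817 CPM in WT and 3266 CPM in KO. Cfap97 was highest in Sd1 at 1529 CPM in WT and 1777 CPM in KO, Cfap70 in Sd1 at 196 and 252 CPM, and Cfap58 in Sd3 at 69.3 and 79.8 CPM.

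From Sd4 to Sd5 the courses of the genes parted. In WT 27 of 39 genes were still at 25% or more of their peak in Sd4, and 9 of these 27 were at least 4-fold lower in Sd5, against 18.6% of all genes with that level in Sd4. In KO it was 10 of 26 genes (17.1% of all genes), the further gene being Dnal1. The 9 WT genes were the 4 tektins, Cfap36, Cfap45, Cfap53, Cfap58 and Dnah3. Cfap45 went from 432 CPM in Sd4 to 18.6 CPM in Sd5 in WT, which is 4.31% of the Sd4 level, and from 423 to 24.9 CPM in KO. Cfap36 went from 1431 to 85.8 CPM in WT and from 1440 to 89.9 CPM in KO. For Tekt2 the Sd5 level was 8.60% of that in Sd4 in WT and 11.8% in KO.

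Other genes differed less between these clusters. In WT the level in Sd5 was 84.4% of that in Sd4 for Dnali1, 74.9% for Cfap69, 58.5% for Cfap206 and 59.6% for Rsph9. For Rsph10b the log2 ratio of Sd5 to Sd4 was 0.11 (−0.26 to 0.46) and for Dnah7b −0.12 (−0.46 to 0.21), so neither level differed beyond counting error. The cuts at 4-fold, 10% and 25% were chosen with the values known. Just inside it lay Tekt1 with a WT log2 ratio of −2.42 (−2.61 to −2.24), and just outside it Dnal1 with −1.89 (−2.55 to −1.31) and Dnaic1 with −1.88 (−2.47 to −1.36). In WT 24 of 39 genes were under 10% of their peak in every cluster from Sd6 to Sd10 (38.6% of all genes), and in KO 21 of 39 (38.0%). At least 25% of the peak was read throughout Sd5 to Sd8 for 6 of 39 genes in either library (29.6% of all genes in WT, 29.8% in KO). In Sd10 this held for 5 of 39 in either library (24.1 and 24.4%).

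**Figure D4:**
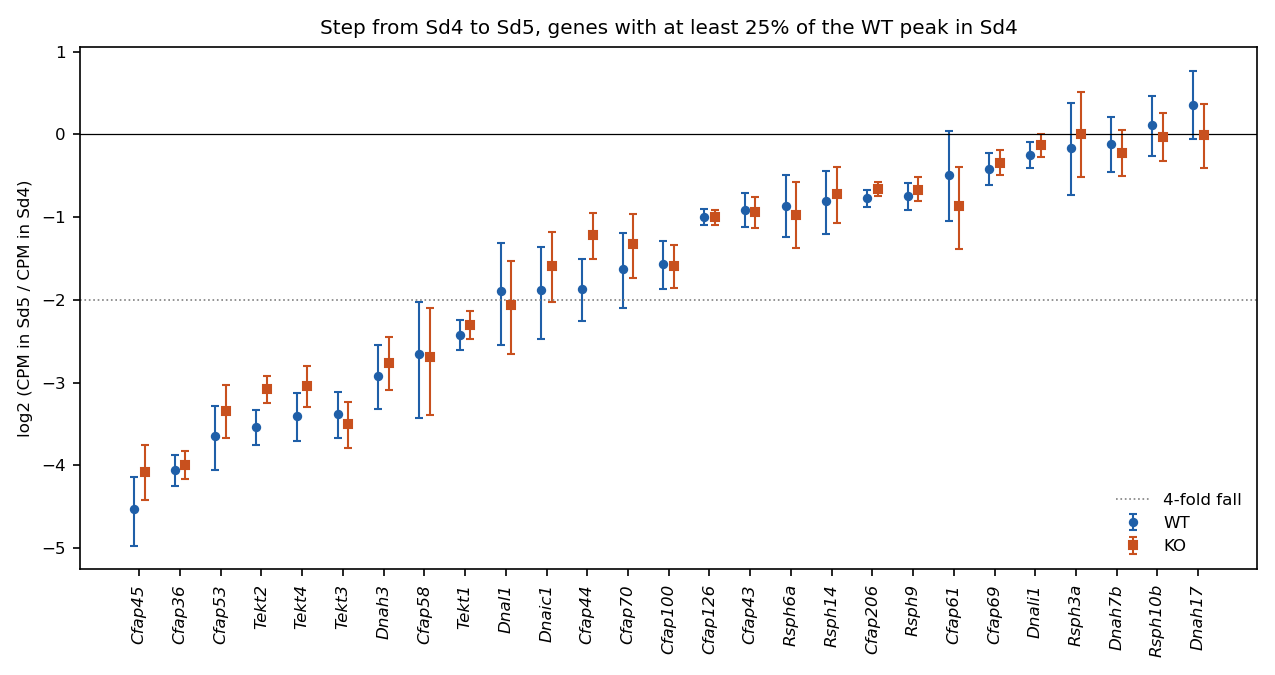
log2 ratio of the CPM in Sd5 to that in Sd4 (vertical axis) for the 27 genes with at least 25% of their WT peak in Sd4, in WT (circles) and KO (squares), with exact 95% intervals for counting error. The tektins, Cfap36, Cfap45, Cfap53, Cfap58 and Dnah3 lie under the dotted line of a 4-fold lower level, and Rsph10b, Dnah7b and Rsph3a lie near 0.

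The share of cells with a UMI gave the same picture per cell. With every cell thinned to 3000 UMIs, Dnah8 was detected in 9.23% of WT Sc1 cells (4.86 to 15.6%) and in 87.9% of Sc2 cells (84.7 to 90.7%). In Sg, whose cells should lack the transcript, it was detected in 14.6%, so the Sc1 share was no higher than this background. Without thinning these shares were 24.6, 97.7 and 22.8% in Sc1, Sc2 and Sg. Tekt2 was detected in 93.7% of WT Sd3 cells, 91.6% of Sd4 cells and 19.0% of Sd5 cells (14.7 to 24.0%), against 14.2% in Sg. In KO Tekt2 was detected in 93.6, 90.2 and 22.0% of the cells of Sd3, Sd4 and Sd5. Without thinning, the WT shares of Tekt2 were 99.4, 97.4 and 38.1%. The median depth was 6133 UMIs per cell in WT Sg, 6213 in Sc1, 11862 in Sc2, 7179 in Sd3, 8976 in Sd4 and 7633 in Sd5.

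Features that the symbol rule did not use are given beside the course. All 39 genes had 1 gene of that name in the GENCODE vM21 annotation of GRCm38, spread over 15 chromosomes with none on X or Y. The longest coding transcript had a median length of 13696 bases in the heavy chains, 3615 bases in the Cfap genes, 2510 bases in the intermediate and light chains, 1977 bases in the radial spoke genes and 1539 bases in the tektins. Over the 39 genes, transcript length and the position of the highest WT cluster had a Spearman rho of −0.516, and over the 32 genes other than heavy chains one of −0.365. With the position of the WT start, the rho of transcript length was weaker, at −0.329 over the 39 genes. These are descriptions over genes, which are not independent and include paralogs. In 17 of the 39 genes an exon overlapped an exon of a gene on the other strand, such as Crnkl1 at Cfap61 and Lyrm1 at Dnah3, and 2 overlapped a gene on the same strand, Cfap43 (Itprip) and Rsph10b (Pms2). Whether the counting used strand was not stated, so reads of such neighbours could be counted in these genes.

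A second list of 65 genes held other axoneme genes, dynein assembly factors, light chains shared with cytoplasmic dynein and transcription factors, and 38 of them had 1 possible row. Their highest WT cluster lay in Sg to Sc2 for 4 (37.2% of all genes), in Sd1 to Sd4 for 30 (38.7%), in Sd5 to Sd8 for 2 (12.2%) and in Sd9 to Sd10 for 2 (11.8%). Of the dynein assembly factors, which fold and load the arms in the cytoplasm, Dnaaf1 was highest in Sd1 at 1510 CPM and Lrrc6 in Sd3 at 435 CPM. The outer arm docking genes Ttc25 and Armc4 were both highest in Sd3, at 485 and 205 CPM. Of the central pair genes, Spag17 was highest in Sd1 at 720 CPM and Spef2 in Sd2 at 352 CPM. Ccdc65 of the nexin-dynein regulatory complex, which links neighbouring doublets, was highest in Sd3 at 240 CPM. Ccdc39, which was listed with this complex, was highest in Sc2 at 917 CPM. In the list of inner proteins of the doublets, Mns1 was highest in Sd1 at 1247 CPM, and Tssk6, which is a sperm kinase, in Sd10 at 3337 CPM. The light chains Dynll1 and Dynll2, which also serve cytoplasmic dynein and other complexes, were highest in Sd9 (2878 CPM) and Sd7 (2922 CPM), outside the course of the axonemal chains. Of the transcription factors, Rfx2, known to bind X-box sites in cilia genes, was highest in WT Sc2 at 42.5 CPM. Mybl1, a meiotic regulator, was highest in Sd1 at 159 CPM, and Crem and Foxj1 in Sd3 at 637 and 64.8 CPM. Tulp2, which was listed with the transcription factors, was highest in Sd4 at 1242 CPM.

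Rfx2 was highest in Sc2 in WT, but in KO all 5 genes listed as transcription factors, Tulp2 included, with 1 possible row were highest in Sd1 to Sd4. The share of the 39 genes started by Sc2 was close to that of all genes. The promoters of the 39 genes were searched for X-box letters, which Rfx2 is known to bind. The search covered the 250 bases before the RefSeq starts (GRCm38.p6). The table held 33 of the 39 genes. A single arm, GTTGCC on either strand, occurred in 9 of 33 (27.3%), against 11.8% of all 27025 genes in the table. A pair of arms, GTNNCC and GGNNAC with 2 bases between them, occurred in 3 of 33 (9.09%), against 1.81% of all genes. The letters TGACGTCA, a site of the Crem family, occurred in none of the 33 and in 1.77% of all genes. A match is a description of the letters only. The 5 stretches below lie upstream of every annotated exon, read 5′ to 3′ on the strand of the gene, with the matched letters in capitals, and are examples of an arm or pair within 100 bases of the start of a gene described above. Further such matches, in Cfap46, Cfap126, Cfap161, Tekt1 and, as a second arm, Tekt2, are not printed.
Cfap44, chr16:44394736-44394795, plus strand, 19 bases before the start: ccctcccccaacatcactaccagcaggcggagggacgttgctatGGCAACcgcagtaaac
Tekt2, chr4:126325689-126325748, minus strand, 22 bases before the start: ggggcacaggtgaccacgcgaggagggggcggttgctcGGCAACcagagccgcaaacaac
Cfap58, chr19:47937615-47937674, plus strand, 59 bases before the start: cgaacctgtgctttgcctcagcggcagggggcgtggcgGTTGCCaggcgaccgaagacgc
Cfap20, chr8:95434931-95434990, minus strand, 94 bases before the start: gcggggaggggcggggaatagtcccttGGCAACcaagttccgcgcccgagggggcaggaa
Cfap206, chr4:34730207-34730266, minus strand, 23 bases before the start, with the pair: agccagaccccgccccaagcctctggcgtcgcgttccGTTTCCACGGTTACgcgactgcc
No member held both the single arm and the pair. The 9 genes with the single arm peaked in different WT clusters, namely in Sc2 (Dnah7b, Cfap46, Cfap74), Sd1 (Cfap20, Cfap44), Sd2 (Cfap161) and Sd3 (Tekt1, Tekt2, Cfap58).

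The course of the 39 genes was nearly the same in KO as in WT. The highest cluster was the same for 35 genes and 1 cluster apart for 4, namely Dnah12, Dnal1, Rsph10b and Cfap61. The start was the same for 38 genes and 1 cluster apart for Dnali1. The Pearson correlation of WT and KO levels over the 13 clusters had a median of 0.997 and was lowest at 0.936, over clusters that share their library.

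Levels were compared between KO and WT within each cluster for genes with at least 10 UMIs over both libraries, as log2 ratios with a prior of 1 UMI. In the clusters where the genes are abundant, the ratios were small. In Sc2 the median of the 39 genes was 0.13 and 31 of 39 were above 0, while the median of all genes read was −0.05 and 41.7% were above 0. No member was at least 2-fold higher or lower in Sc2, where 0.629% of all genes were 2-fold higher and 2.94% lower. In Sd3 the median was 0.02, that of all genes −0.01, and again no member was 2-fold apart (0.795% of all genes higher, 1.06% lower).

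In the last clusters most members read lay higher in KO. In Sd9 their median log2 ratio was 0.46 with 30 of 39 above 0, against 0.089 and 60.8% for all genes. Summed, they read 1258 CPM in WT Sd9 and 1650 CPM in KO Sd9, a log2 ratio of 0.39 (0.33 to 0.46). In Sd10 the median was 0.41 with 27 of 35 read above 0, against 0.044 and 54.1% for all genes, and the sums were 1225 and 1616 CPM, a log2 ratio of 0.40 (0.31 to 0.49). Part of the Sd10 sum came from Cfap126, with 246 CPM in WT and 364 CPM in KO (log2 ratio 0.57, 0.37 to 0.77), and from Cfap69, with 196 and 288 CPM. Without these 2 genes, which had the most UMIs there, the sums were 783 and 964 CPM in Sd10, a log2 ratio of 0.30 (0.18 to 0.41), and 803 and 1130 CPM in Sd9, a ratio of 0.49 (0.41 to 0.57). In Sd9 the ratio of Cfap126 was −0.02 (−0.17 to 0.13). The medians of the members were 0.30 in Sd6, 0.27 in Sd7, 0.07 in Sd8, 0.07 in Sd5 and −0.02 in Sd4, so they did not climb evenly. By class, the summed log2 ratio in Sd10 was 0.50 (0.15 to 0.86) for heavy chains, 0.49 (0.38 to 0.60) for Cfap genes, 0.31 (−0.01 to 0.64) for tektins, 0.20 (−0.04 to 0.44) for radial spoke genes and −0.11 (−0.49 to 0.27) for intermediate and light chains.

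Few members passed 2-fold there. In Sd9 1 of 39 was at least 2-fold higher in KO, against 5.28% of all genes, and none lower (1.95%). That gene was Dnah2, with 3 UMIs in WT and 9 in KO, a log2 ratio of 1.48 (−0.38 to 4.14). In Sd10 1 of 35 was at least 2-fold higher (5.81% of all genes) and 1 lower (3.6%). The higher was Dnah17, with 1 UMI in WT and 14 in KO, a log2 ratio of 2.87 (interval 0.60 to 8.72). The lower was Cfap74, with 7 and 4 UMIs and a log2 ratio of −1.19 (−3.52 to 0.68). At 50 UMIs or more, the only 2-fold value in any cluster was that of Dnah12 in Sg, with 25 UMIs (15.2 CPM) in WT and 45 UMIs (31.1 CPM) in KO, a log2 ratio of 1.01 (0.29 to 1.80).

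With at least 50 UMIs in Sd10, the highest ratios were those of Cfap44, Cfap206 and Dnah8. Cfap44 read 14.4 CPM in WT and 24.4 CPM in KO, a log2 ratio of 0.75 (−0.06 to 1.65). Cfap206 read 30.3 and 49.4 CPM, a ratio of 0.70 (0.14 to 1.29), and Dnah8 31.1 and 49.4 CPM, a ratio of 0.66 (0.10 to 1.25). The lowest were Dnali1 with 69.5 and 59.6 CPM, Rsph3a with 23.9 and 19.9 CPM and Cfap57 with 44.7 and 36.3 CPM, and the intervals of these 3 ratios all held 0. In WT Sd10, Cfap44, Cfap206 and Dnah8 were at 7.06, 3.77 and 3.38% of their WT peak. In KO Sd10 they were at 9.94, 5.38 and 4.43% of their KO peak.

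**Figure D5:**
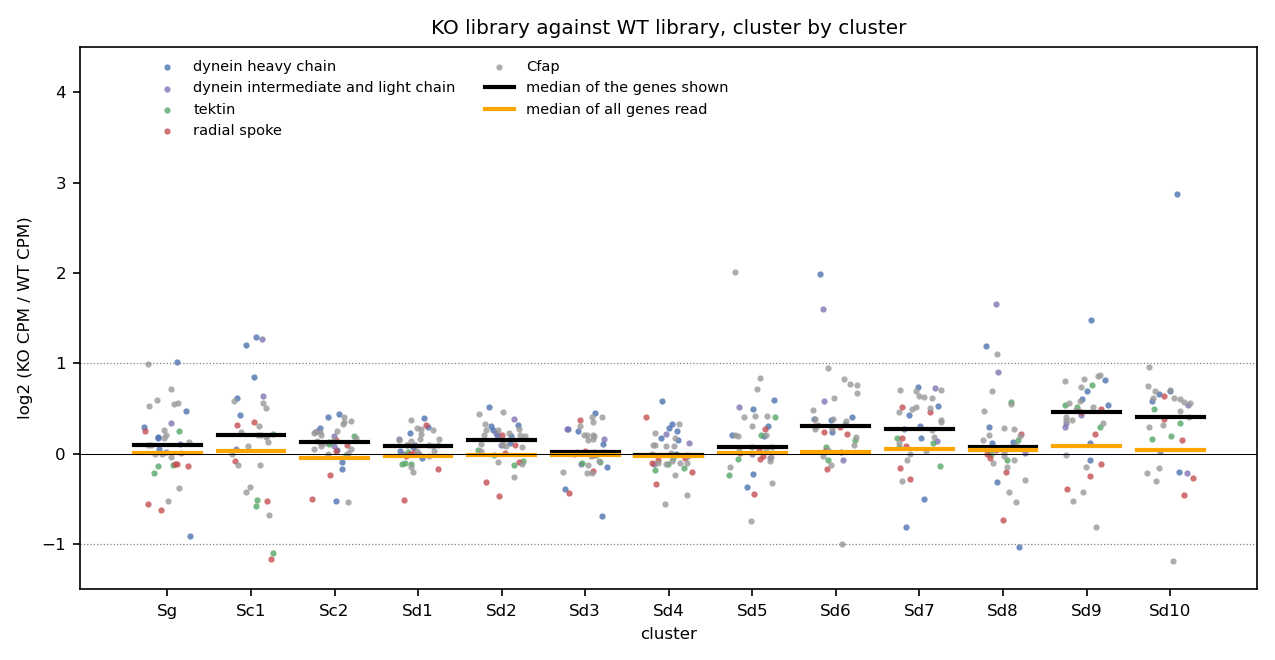
log2 ratio of KO CPM to WT CPM (vertical axis) of each axoneme gene with at least 10 UMIs in a cluster (points, coloured by class), with the median of these genes (black bars) and of all genes read (orange bars). The black bars lie near 0 in Sd3 and Sd4 and at 0.46 and 0.41 in Sd9 and Sd10, and the dotted lines mark 2-fold.

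Other measures are given beside these late ratios, and they went in different directions. Sc2 held 9.44% of the WT cells and 12.4% of the KO cells, Sd1 9.92 and 14.6%, and Sd2 6.21 and 8.14%. The shares were close in Sd3 (9.75 and 9.71%) and Sd4 (7.33 and 7.18%), where other members were highest. The summed level of the 3 spermatocyte markers Sycp3, Piwil1 and Ccna1 was 67.5 CPM in WT Sd9 and 80.3 CPM in KO Sd9, a log2 ratio of 0.25 (−0.05 to 0.55), and 43.9 and 47.7 CPM in Sd10, a ratio of 0.12 (−0.39 to 0.64). In Sd10 these 3 did not move together. Ccna1, which is highest in Sd1, read 11.2 CPM in WT and 23.8 CPM in KO, a log2 ratio of 1.07 (0.19 to 2.08), against −0.32 (−1.05 to 0.41) for Sycp3 and −1.01 (−2.85 to 0.58) for Piwil1. The 3 round spermatid markers had ratios of 0.10 (−0.25 to 0.46) in Sd9 and 0.07 (−0.44 to 0.60) in Sd10, and the sum of the 8 late spermatid markers −0.05 (−0.06 to −0.05) and −0.07 (−0.08 to −0.06). In Sd10 single late markers differed by more, with Tnp1 at −0.55 (−0.63 to −0.47), Tnp2 at −0.41 (−0.51 to −0.32), Prm1 at −0.29 (−0.31 to −0.27) and Car2 at 0.25 (0.18 to 0.32), while Prm2, Prm3, Oaz3 and Gapdhs lay between −0.10 and 0.06. The share of mitochondrial UMIs in Sd9 was 0.511% in WT and 0.759% in KO, and in Sd10 0.586 and 0.719%. Of genes of other testis cells, 1 of 5 Leydig, 1 of 4 macrophage, 1 of 3 endothelial and peritubular, and 0 of 6 Sertoli markers had 1 possible row. In WT and KO Sd9 the Leydig gene Cyp17a1 was at 5.34 and 10.2 CPM, Myh11 at 4.20 and 2.74 CPM, and Cd68 at 0.382 and 0 CPM. The part of these measures in the late ratios of the axoneme genes was not tested.

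Some members lay on the same side in every cluster, by amounts that varied. Of the 31 members read in all 13 clusters, 7 were higher in KO in all of them, namely Cfap36, Cfap43, Cfap69, Cfap97, Dnah14, Dnah8 and Dnaic1, against 4.81% of all genes, and none was lower in all (2.01% of all genes). This count was chosen with the values known, and the 13 clusters share their library. For Cfap69 the intervals of WT and KO did not overlap in 11 of 13 clusters, with 124 and 146 CPM in Sc2, 158 and 208 CPM in Sd3, 141 and 193 CPM in Sd7, and 196 and 288 CPM in Sd10. Its log2 ratios ran from 0.13 in Sg to 0.58 in Sc1, and were 0.40 (0.28 to 0.53) in Sd3 and 0.56 (0.34 to 0.79) in Sd10. For Cfap36 the ratios ran from 0.01 in Sd4 to 0.87 in Sd9, and for Cfap97 from 0.05 in Sd5 to 0.77 in Sd6. Rsph3a lay the other way in 11 of 13 clusters, with 55.6 CPM in WT Sd1 and 39.1 CPM in KO Sd1, a log2 ratio of −0.51 (−0.72 to −0.29), and −0.50 (−0.73 to −0.27) in Sc2. Rsph3a has the paralog Rsph3b, and reads could be split between them.

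For the second list, which includes the transcription factors, the shared light chains and Tssk6, the medians were as follows. In Sd9 the median log2 ratio of the 37 read was 0.20 with 26 above 0, against 0.089 and 60.8% for all genes. In Sd10 that of the 34 read was 0.23 with 25 above 0, against 0.044 and 54.1% for all genes. Both sets of genes were read in the same libraries.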

How the data were processed

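Reads of both libraries (GEXSCOPE microwell beads, 150 base reads) were trimmed with fastp, aligned to mm10 with STAR 2.5.3a and assigned to Ensembl 92 genes with featureCounts 1.6.2 by the authors, per the paper's methods and their processing notes. The deposited matrix holds raw UMI counts, not normalized, of the cells the authors kept in Seurat 3.2.3, whose limits were not given in the sources used here. The authors' cell table gives each cell's library, cluster, UMI count and percent of mitochondrial UMIs. No further cell was left out and no doublet caller was run.

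The symbol list has 25065 lines for 26758 matrix rows. The 30 mitochondrial symbols were placed on rows whose UMIs add up to the deposited percent of mitochondrial UMIs, exactly in 12408 of 12408 cells. Between these rows, only rows seen in under 5 cells were allowed to lack a symbol, which contradicted none of 31 intervals, and 5476 symbols with 86.9% of the UMIs then had 1 possible row. Within each library, the UMIs of a cluster's cells were added up and expressed as CPM. Poisson, binomial (Clopper-Pearson) and conditional binomial intervals at 95% are exact and describe counting error. No test between genotypes was made, since each had 1 library. Shares of cells used cells thinned to 3000 UMIs. Named genes were members with at least 100 UMIs, those 2-fold apart in a cluster with at least 50 UMIs, and the 3 highest and 3 lowest ratios in Sd10. Genes named outside that rule (those 2-fold apart below 50 UMIs, the 7 higher in all clusters, Rsph3a, Cfap126 in Sd9 and Sd10) were chosen after their values were seen. The members and gene lists were chosen with earlier results of these data known. Python 3.11.15, numpy 2.4.6, scipy 1.17.1 and pandas 2.3.3 were used, and scripts were tested on simulated data.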

Additional observations from a re-analysis of the deposited data

How the results depend on the processing

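Without the rule on rows seen in under 5 cells, 24 members remained in place of 39. These 24 keep the same rows, so their smaller counts (4 highest in Sg to Sc2, 0 in Sd5 to Sd8 and 0 in Sd9 to Sd10 in either library, 13 in WT and 14 in KO started by Sc2, 18 started by Sd1) come from fewer members. With UMIs per 1000 cells in place of CPM, 13 WT members were highest in Sg to Sc2, and 0 in Sd5 to Sd8 and 0 in Sd9 to Sd10 in both libraries. Members highest in Sd5 to Sd8 numbered 3 in both libraries without the 20 rows with most UMIs, 2 in WT as the mean of single-cell CPM, and 3 in KO in thinned cells. With the start at 75% of the peak, 12 members in either library had started by Sc2.

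The median KO to WT ratio stayed between 0.09 and 0.18 in Sc2, 0.00 and 0.06 in Sd3, 0.34 and 0.52 in Sd9, and 0.21 and 0.48 in Sd10 over 10 alternatives. Without the 2 members with most UMIs (Cfap126 and Cfap69), a setting chosen after seeing the data, the summed ratio was 0.49 in Sd9 and 0.30 in Sd10. Counts of members past 2-fold rested on few UMIs. In Sd9 those higher numbered 0 with a prior of 10 UMIs, at 50 UMIs and without the row rule, 4 as the mean of single-cell CPM, 4 without the 5% of cells with most UMIs (1 lower) and 3 in thinned cells (2 lower). In Sd10 they numbered 0 at 50 UMIs (0 lower), 4 without a filter, and 4 in thinned cells (4 lower), and with a prior of 10 UMIs 0 were lower. At 1.5-fold, 10 members were higher and 1 lower in Sd9, 11 higher in Sd10, and 1 lower in Sd3. Cfap74 was again lower in Sd10. The shares of all genes at this cut and under these alternatives are not given here. In Sd9 and Sd10 the upper quartile of the log2 ratios was 0.59 and 0.61 for members, and 0.39 and 0.38 for all genes. The cause of the shifts between alternatives was not tested. The median KO to WT ratio of the members stayed above 0 in Sc2, Sd9 and Sd10 under these alternatives. Courses did change, since per 1000 cells 25 of 39 WT members kept their highest cluster, and Cfap69 and Rsph10b were highest earlier. No paired analysis was possible because there is 1 library per genotype, and for the same reason no library could be left out. Depth limits the late clusters most, since 3 UMIs in WT Sd10 are 2.39 CPM.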
